A study of Mus musculus with 16 samples.

Results

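The genes described here form the core of gp130 signalling: the shared receptor chain Il6st (gp130), its partner chains Osmr, Lifr and Il6ra, the kinases Jak1 and Jak2, the transcription factor Stat3, and the suppressors Socs1, Socs2 and Socs3. These 10 genes were taken by symbol from the 56941 genes of the deposited table, with earlier results of these data known. All 10 were among the 16306 genes with enough counts to be tested. Bulk RNA was sequenced from murine gingival fibroblasts (mGF), connective tissue cells grown out of explants of the gingiva around the maxillary second molar of wild-type C57Bl6 mice aged 3 to 6 months, kept in 20% serum and used between passages 2 and 8. All cells received an albumin carrier for 24 h: 200 µM BSA control in the BSA and IL-1β conditions, and 200 µM of a BSA-palmitate complex in the palmitate and palmitate + IL-1β conditions. Palmitate is a saturated fatty acid, and IL-1β, an inflammatory cytokine, was given at 1 ng/mL. Each of the 4 conditions had 4 libraries, numbered 1 to 4 (BSA), 5 to 8 (IL-1β), 9 to 12 (palmitate) and 13 to 16 (palmitate + IL-1β). The labels do not say whether the libraries of a condition came from separate cultures or animals, so p-values measure only the spread between these libraries, which may be technical.

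Cytokines of the IL-6 family, among them IL-6, LIF, oncostatin M and IL-11, signal through gp130 together with further receptor chains that vary with the ligand. Kinases of the JAK family bound to the receptor phosphorylate STAT3, which enters the nucleus and switches on genes that include Socs3, whose protein binds gp130 and shuts the signal down. In connective tissue cells this pathway is known for acute phase, chemokine and matrix remodelling genes. RNA levels were measured here, not receptor protein or phosphorylated STAT3.

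Levels are counts scaled to a common library total (CPM), on library sizes adjusted by the trimmed mean of M values (TMM), and levels of different genes are compared only after division by transcript length in kilobases. Differences between conditions are log2 fold changes, each with its standard error (SE), from edgeR's quasi-likelihood test on the raw counts of all 16 libraries in 1 fit. A gene was called higher or lower at a Benjamini-Hochberg adjusted p under 0.05 over all tested genes. Gene counts per library ranged from 21234789 to 92752515, the latter in palmitate replicate 10 with 35329711 in the next deepest library, and 3 counts corresponded to 0.0331 to 0.146 CPM. Socs1, with the fewest counts of the 10 genes, had between 57 and 282 counts per library. Summed CPM of 10 fibroblast markers was 28500 to 33700 in all libraries, against 2.71 to 4.53 for 9 leukocyte markers, 0.288 to 0.855 for 7 epithelial markers and 1.89 to 2.74 for 5 endothelial markers. Tyrobp and Krt6a had no count in any library, and Adgre1, Cd3e and Krt13 never passed 3 counts. The leukocyte markers Csf1r, Cd68 and Lyz2, however, had counts in every library and were tested. Their means in BSA were 1.45, 1.14 and 0.923 CPM. The fibroblast markers Lum and S100a4 were also low, at 1.82 and 2.67 CPM in BSA. Most of the fibroblast sum came from Col1a1, Col1a2, Vim and Col3a1 (14200, 6940, 5660 and 4950 CPM in BSA). In bulk RNA, fewer cells of a type and less RNA per cell cannot be told apart.

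On the GRCm39 assembly (GENCODE vM39), Osmr (ENSMUSG00000022146.13) lies at chr15:6843053-6904450 on the minus strand and Lifr (ENSMUSG00000054263.13) at chr15:7120095-7226970 on the plus strand, so that the 2 receptor genes are neighbours on chromosome 15 with 215 kb between them. Il6st (ENSMUSG00000021756.13) lies at chr13:112600604-112646620 on the plus strand and Il6ra (ENSMUSG00000027947.12) at chr3:89771366-89820719 on the minus strand. The kinase genes are Jak1 (ENSMUSG00000028530.15) at chr4:101008838-101122487, minus strand, and Jak2 (ENSMUSG00000024789.14) at chr19:29228677-29290505, plus strand. Stat3 (ENSMUSG00000004040.17), at chr11:100775924-100830450, and Socs3 (ENSMUSG00000053113.4), at chr11:117856905-117860898, share chromosome 11 and the minus strand. Socs1 (ENSMUSG00000038037.6) lies at chr16:10600104-10603875 and Socs2 (ENSMUSG00000020027.19) at chr10:95219523-95253929, both on the minus strand. Counts of Socs2 are uncertain, since one of its transcripts shares a stretch of 599 bases at 99.499% identity with Gm9847 and a different one 458 bases at 95.633% with Gm8000. Genes on the opposite strand share up to 18% of the exon bases of a member (Jak1 with Raver2). Strand-aware counting keeps these apart only if the libraries marked the strand, and the sources differ on the library kit.

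To look at sequence beside expression, promoter windows of 300 bases, from 250 before to 50 after the RefSeq start, were searched on both strands for the STAT motif TTCNNNGAA, which reads the same on either strand, and for the kappa B motif. RefSeq windows (from its GRCm38.p6 table, each found once in GRCm39) were matched for 9 of the 10 genes, with 2 windows for Lifr, and Socs2 was the gene without an entry. The STAT motif was found in the Socs3 window alone, and the kappa B motif in none. Among all 32851 windows, 8.3% held the STAT motif and 8.46% the kappa B motif. The Socs3 motif, at -154 to -146 from the start, is shown with 30 bases of minus strand sequence (GRCm39 chr11:117860327-117860356, -164 to -135), because Socs3 had the largest change among the 10 genes. The stretch falls inside an exon of an annotated Socs3 transcript that starts further upstream, and capitals mark the motif.
Socs3: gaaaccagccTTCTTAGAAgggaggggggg
A match of these letters describes the sequence and is not evidence of a bound factor.

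With palmitate alone, Osmr, Lifr, Il6ra, Jak2 and Socs3 rose, gp130 itself, Jak1 and Stat3 rose little, and Socs2 fell. Of the 10 genes, 8 were called higher and 1 lower, against 37.3% of all tested genes called (19.8% higher), and the median log2 fold change was 0.65 against 0 over all tested genes. The libraries of palmitate and BSA did not overlap for 9 genes, as for 36% of all tested genes. Socs1 was the exception in both counts. Across all genes, 53.1% of the calls were higher ones with TMM scaling and 37.1% with upper-quartile scaling, while the calls and directions of the 10 genes in this comparison were the same with both. The fibroblast marker sum moved too, from 31600 to 33500 CPM in BSA down to 29200 to 31300 CPM with palmitate, with 1 of its 10 genes called higher (Pdgfra, log2 fold change 0.54) and 4 lower (Vim fell by 0.31 on the log2 scale), and the part of this shift in the results was not tested.

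**Figure D1:**
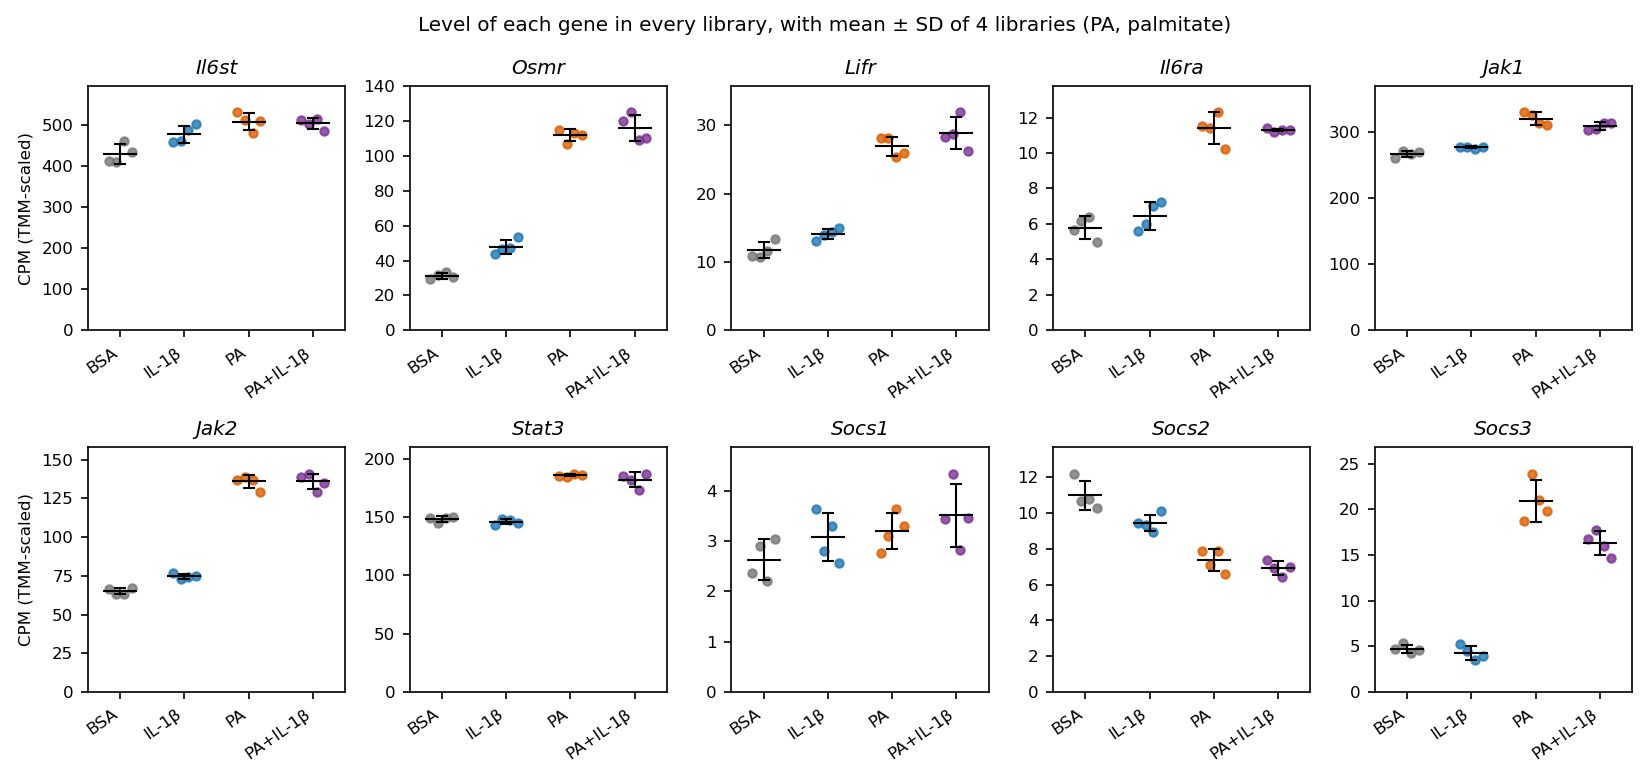
Level of each of the 10 genes (vertical axis, TMM-scaled CPM from 0) in every library of the 4 conditions (horizontal axis; PA, palmitate), with the mean as a line and the SD of 4 libraries as bars. Osmr, Lifr, Il6ra, Jak2 and Socs3 sit higher in every palmitate library than in every library without palmitate, Socs2 sits lower, and the Socs1 conditions overlap.

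Osmr, the signalling chain of the oncostatin M receptor, measured 29.4, 31.8, 33.4 and 30.8 CPM in BSA and 115, 107, 113 and 112 CPM with palmitate. The ranges lay far apart, and the fitted log2 fold change was 1.83 (SE 0.06, adjusted p = 1.89e-22), a 3.57-fold rise. Lifr, the LIF receptor chain, measured 10.9, 10.8, 11.6 and 13.3 CPM in BSA and 28.1, 28.1, 25.4 and 26 CPM with palmitate. Every palmitate library was above every BSA library, with a log2 fold change of 1.21 (SE 0.07, adjusted p = 3.3e-15). Il6ra, the chain that binds IL-6, stood at 5.65, 6.14, 6.41 and 4.96 CPM in BSA against 11.5, 11.4, 12.3 and 10.2 CPM, again without overlap (log2 fold change 0.98, SE 0.09, adjusted p = 2.15e-10). Il6st, already abundant in BSA with 413, 411, 462 and 434 CPM, reached 532, 513, 482 and 510 CPM. The lowest palmitate library was above the highest BSA library, but the rise was small, 0.24 on the log2 scale (SE 0.04, adjusted p = 4.9e-05).

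The proportions of the receptor chains therefore changed. Per kilobase of merged exons, Il6st stood at 27.7 ± 1.52 CPM per kb in BSA and 32.8 ± 1.33 with palmitate (SD, n = 4), and Osmr at 2.53 ± 0.134 and 9.01 ± 0.274. Il6st made up 87.3% ± 0.361 of the per-kilobase sum of the 4 receptor chains in BSA and 72.8% ± 0.834 with palmitate, while the share of Osmr went from 7.98% ± 0.296 to 20% ± 0.73. The ratio of Il6st to Osmr per kilobase was 11 ± 0.436 in BSA and 3.64 ± 0.169 with palmitate. With the length of the Ensembl canonical transcript in place of merged exons, a choice added after the data were seen, the Il6st shares were 86.8% and 70.6%. Of these 4 chains, gp130 was the most abundant in every condition by either length. Il11ra1, the IL-11 receptor chain, was not in the sum. On merged exons it stood at 3.57 ± 0.182 CPM per kb in BSA, above Osmr, and at 2.47 ± 0.129 with palmitate, below Osmr.

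Jak2, a kinase that associates with cytokine receptors, measured 66.7, 63.5, 63.2 and 67.4 CPM in BSA and 137, 139, 137 and 129 CPM with palmitate. The conditions were well separated, with a log2 fold change of 1.06 (SE 0.04, adjusted p = 1.36e-19), close to a 2.08-fold rise. Jak1, the kinase that gp130 signalling chiefly relies on, went from 261, 271, 267 and 270 CPM to 330, 325, 313 and 310 CPM. This rise of 0.26 on the log2 scale (SE 0.04, adjusted p = 1.2e-06) was called without overlap but was smaller. Per kilobase of merged exons, Jak1 exceeded Jak2 by a ratio of 2.4 ± 0.1 in BSA and 1.38 ± 0.0351 with palmitate, and by 4 ± 0.167 and 2.3 ± 0.0585 with canonical lengths. Stat3 itself measured 149, 145, 149 and 150 CPM in BSA and 185, 184, 187 and 186 CPM with palmitate. Its palmitate libraries were very close together and all above BSA, with a log2 fold change of 0.32 (SE 0.04, adjusted p = 2.42e-08), a size that 15.1% of all tested genes reached or passed in the same direction.

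**Figure D2:**
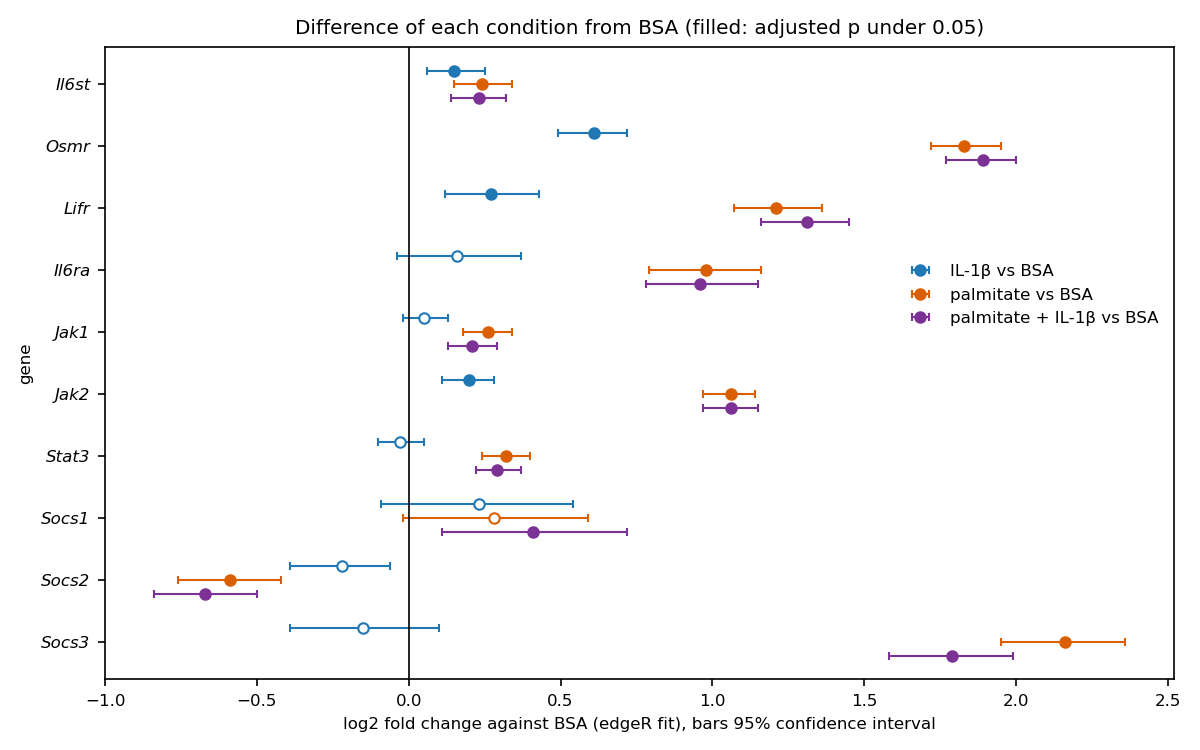
Log2 fold change against BSA (horizontal axis; points, edgeR estimate; bars, 95% confidence interval) of each gene (vertical axis) with IL-1β, palmitate and palmitate + IL-1β, filled where the adjusted p was under 0.05. Palmitate points lie between -0.59 for Socs2 and 2.16 for Socs3, and with IL-1β alone only Osmr lies past 0.5.

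The SOCS genes went apart. Socs3, the feedback inhibitor of gp130 and JAK, measured 4.68, 5.33, 4.27 and 4.58 CPM in BSA and 18.7, 23.9, 21 and 19.8 CPM with palmitate. The lowest palmitate library was more than 3 times the highest BSA library, and the log2 fold change was 2.16 (SE 0.1, adjusted p = 8.58e-18), a 4.46-fold rise that 1.43% of all tested genes matched or passed. Socs2, best known as a suppressor of growth hormone signalling, measured 12.2, 10.7, 10.8 and 10.3 CPM in BSA and 7.87, 7.08, 7.9 and 6.61 CPM with palmitate. It was the 1 gene that fell, by 0.59 on the log2 scale (SE 0.08, adjusted p = 7.57e-07), with every palmitate library below every BSA library. Socs1, a suppressor of interferon signalling, measured 2.37, 2.91, 2.21 and 3.04 CPM in BSA and 2.77, 3.11, 3.64 and 3.29 CPM with palmitate. These ranges overlapped, and the log2 fold change of 0.28 (95% interval -0.02 to 0.59, adjusted p = 0.146) was not called, which leaves a rise within that interval undetected at these counts.

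Socs3 was the larger share of the 3 SOCS genes with palmitate by either length. On merged exons, it made up 46.9% ± 1.66 of their per-kilobase sum in BSA and 80.3% ± 1.81 with palmitate. The place of Socs2 in BSA rested on the length used, because its merged exons span 15258 bases and its canonical transcript 2540. With canonical lengths, Socs2 led in BSA with 62.7% ± 3.26 against 25.6% ± 1.81 for Socs3, and with palmitate Socs3 led with 66.8% ± 2.92 against 24.8% ± 2.76. The ratio of Socs3 to Socs2 per kilobase went from 1.84 ± 0.223 to 12.2 ± 1.86 on merged exons and from 0.411 ± 0.0495 to 2.72 ± 0.415 on canonical transcripts. These shares leave out the other SOCS family genes. Per kilobase of merged exons, Socs4 and Socs5 stood at 11 and 17.2 CPM per kb in BSA, and at 11.7 and 14.4 with palmitate. Socs3 stood at 1.32 ± 0.125 in BSA and 5.86 ± 0.637 with palmitate (SD, n = 4). With palmitate, Socs6 was close to it at 5.28 ± 0.163, under the Socs3 mean but not under the lowest Socs3 library (5.24). Socs7 (1.85) and Cish (0.578) were clearly below it. Canonical lengths were not used for these other genes, so their order beside Socs3 holds for merged exons alone.

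**Figure D3:**
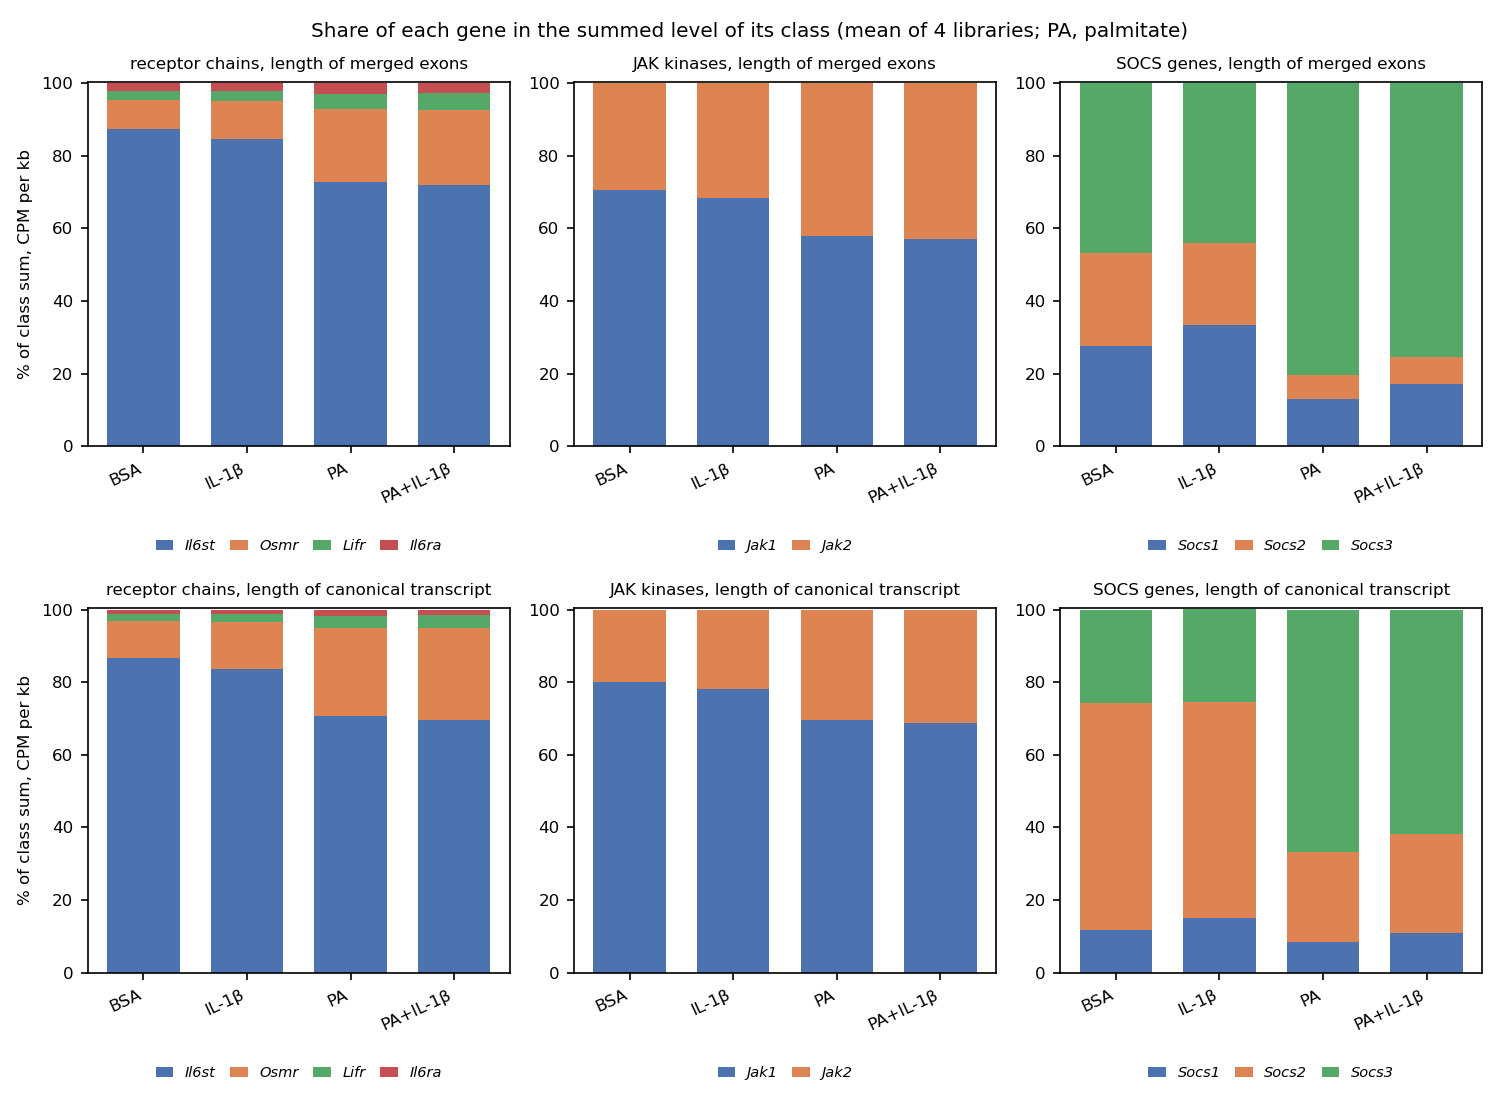
Percent of the summed CPM per kb of the receptor chains, JAK kinases and SOCS genes held by each gene (vertical axis, mean of 4 libraries) in the 4 conditions (horizontal axis; PA, palmitate), by merged exon length (upper row) and canonical transcript length (lower row). The Il6st share is 87.3% in BSA and 72.8% with palmitate on merged exons, and Socs2 leads the SOCS genes in BSA only in the lower row, with 62.7%.

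IL-1β alone moved fewer of these genes and by less. Called higher were 4 of the 10 genes, against 15.1% of all tested genes called (10.1% higher). Called lower were 0 by edgeR (1, Socs2, at an unadjusted p under 0.05) and 0 by DESeq2, and the median log2 fold change was 0.16 against 0. Across all genes, 67.1% of the calls were higher ones with TMM scaling and 43.5% with upper-quartile scaling. Osmr measured 43.7, 46.4, 47 and 53.6 CPM, all above BSA, and rose by 0.61 on the log2 scale (SE 0.06, adjusted p = 2.03e-09), or 1.52-fold. Jak2, at 77.1, 73.1, 74.1 and 74.7 CPM, was also clear of BSA (log2 fold change 0.2, SE 0.04, adjusted p = 0.00115). Lifr, at 13.1, 13.9, 14.4 and 14.9 CPM, overlapped with BSA replicate 4 (log2 fold change 0.27, SE 0.08, adjusted p = 0.0118). Il6st, at 459, 462, 489 and 503 CPM, overlapped with BSA replicate 3 (log2 fold change 0.15, SE 0.04, adjusted p = 0.0172).

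The calls of Lifr and Il6st with IL-1β each rested on single libraries. Without BSA replicate 1 their log2 fold changes were 0.23 (adjusted p = 0.0644) and 0.13 (adjusted p = 0.0873), and without BSA replicate 2 they were 0.23 (adjusted p = 0.0599) and 0.13 (adjusted p = 0.0854). Il6st also lost its call without IL-1β replicate 7 (0.14, adjusted p = 0.0614), without IL-1β replicate 8 (0.13, adjusted p = 0.0718) and with upper-quartile scaling (0.11, adjusted p = 0.0781). Socs3 measured 5.24, 4.53, 3.51 and 3.89 CPM with IL-1β, a range that overlapped with BSA. Its log2 fold change of -0.15 (95% interval -0.39 to 0.1, adjusted p = 0.465) was not called, so a fall beyond -0.39 or a rise beyond 0.1 lies outside the interval. Stat3, at 143, 148, 147 and 145 CPM, was likewise not called (log2 fold change -0.03, 95% interval -0.1 to 0.05, adjusted p = 0.715). Il6ra, Jak1 and Socs1 had log2 fold changes of 0.16, 0.05 and 0.23 with adjusted p of 0.298, 0.4 and 0.363. Socs2 measured 9.45, 9.33, 8.93 and 10.1 CPM, all below BSA. Its log2 fold change of -0.22 missed the threshold (adjusted p = 0.064) but passed it with upper-quartile scaling (-0.27, adjusted p = 0.0233) and when at least 10 counts in every library were required (-0.24, adjusted p = 0.0404). Libraries did not overlap for 4 genes (Osmr, Jak1, Jak2 and Socs2), as for 17.6% of all tested genes.

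Palmitate and IL-1β together moved all 10 genes away from BSA, 9 higher and Socs2 lower, against 47.3% of all tested genes called (24.8% higher). Libraries did not overlap for 9 of them, as for 41.5% of all tested genes. Of the 10 fibroblast markers, 7 were called lower and 1 higher, with a sum of 28500 to 30500 CPM against 31600 to 33500 CPM in BSA, and the part of this shift in the results was not tested. Higher calls made up 52.4% of all calls with TMM scaling and 38.7% with upper-quartile scaling. Socs1, which neither agent alone moved past the threshold, measured 3.43, 4.34, 2.83 and 3.46 CPM, overlapped with BSA and was called with a log2 fold change of 0.41 (SE 0.15, adjusted p = 0.022). That call was lost without BSA replicate 1 (0.35, adjusted p = 0.0851), BSA replicate 3 (0.35, adjusted p = 0.0719) or palmitate + IL-1β replicate 14 (0.29, adjusted p = 0.136), and with upper-quartile scaling (0.33, adjusted p = 0.0647). The receptor chains were close to their palmitate levels, with Osmr at 120, 125, 109 and 110 CPM and Lifr at 28.2, 28.7, 31.9 and 26.2 CPM. Their log2 fold changes against BSA were 1.89 (SE 0.06) and 1.31 (SE 0.07). Against IL-1β alone, the pair of agents gave 7 higher calls and 1 lower, with 35% of all tested genes called (18.9% higher) and libraries that did not overlap for 8 genes, as for 31.3% of all tested genes. Il6st (0.08, adjusted p = 0.185) and Socs1 (0.19, adjusted p = 0.354) were the genes not called. Palmitate set directly against IL-1β gave 7 higher and 1 lower as well, with 31.6% of all tested genes called (16.5% higher), the uncalled genes again being Il6st and Socs1. Its libraries did not overlap for 8 genes either, as for 31.1% of all tested genes.

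Adding IL-1β to palmitate changed 1 of the 10 genes, Socs3, against 9.81% of all tested genes called (4.1% lower). Socs3 measured 16.8, 17.7, 16 and 14.7 CPM with both agents, all below the lowest palmitate library at 18.7 CPM, a lack of overlap seen in 16.7% of all tested genes. The log2 fold change was -0.37 (SE 0.09, adjusted p = 0.00393), and without palmitate replicate 10, the deepest library, it was -0.28 (adjusted p = 0.056) and no longer called. Both conditions stood well above BSA, with a log2 fold change of 1.79 (SE 0.1, adjusted p = 1.12e-15) for the pair of agents. The other 9 genes differed between these conditions by -0.08 (Socs2) to 0.13 (Socs1) on the log2 scale. Their 95% intervals reached no further than -0.1 and 0.08 for Il6st, -0.05 and 0.16 for Osmr, and -0.11 and 0.05 for Stat3, and were widest for Socs1, from -0.16 to 0.43.

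Whether palmitate acted differently with and without IL-1β was tested as an interaction, for which 1.99% of all tested genes were called and 1.83% with a lower log2 fold change of palmitate in the presence of IL-1β. Osmr was the 1 gene of the 10 called. Palmitate raised it by 1.83 on the log2 scale without IL-1β and by 1.28 (SE 0.05) with it, a difference of -0.55 (SE 0.08, adjusted p = 1.42e-05), while its level was 116 ± 7.6 CPM with both agents and 112 ± 3.39 CPM with palmitate alone (SD, n = 4), with overlapping libraries. Jak2 had the next smallest p, with a difference of -0.19 (SE 0.06, adjusted p = 0.0974), which DESeq2 called (-0.2, adjusted p = 0.0276). The differences of the other genes, from -0.22 for Socs3 to 0.14 for Socs2, were not called. The interaction of Stat3 was 0 on the log2 scale, with an interval of -0.11 to 0.11.

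**Figure D4:**
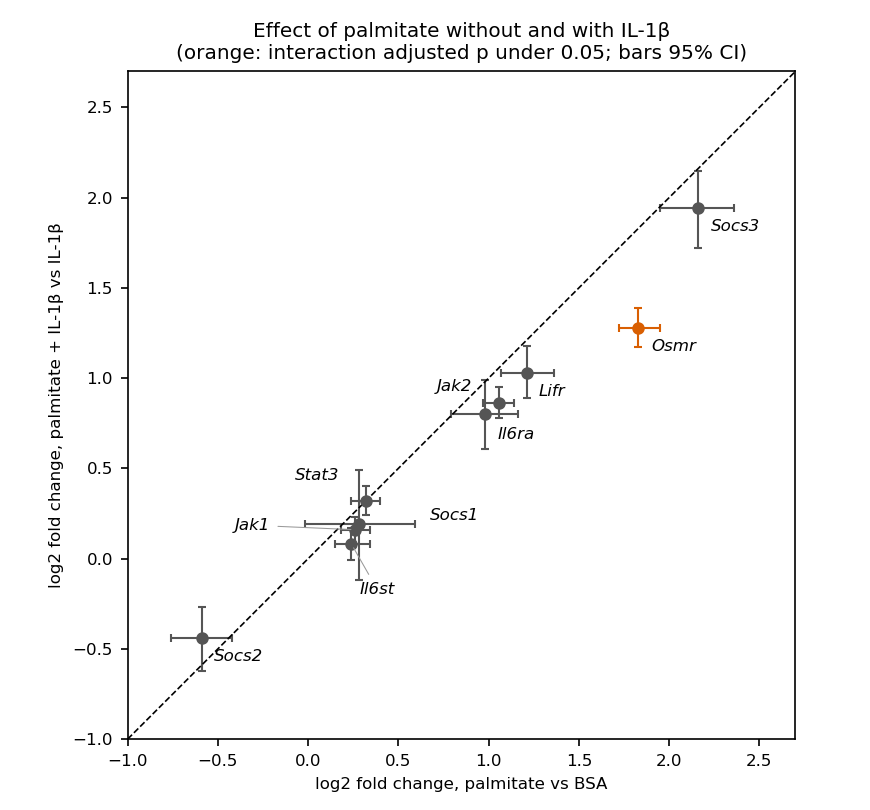
Log2 fold change of palmitate against BSA (horizontal axis) and of palmitate + IL-1β against IL-1β (vertical axis) for the 10 genes, with 95% confidence intervals and a dashed line of equal effects. Osmr, in orange, lies below the line at 1.83 and 1.28, and is the gene whose interaction had an adjusted p under 0.05.

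The order of the 4 conditions took several forms. For Osmr, Lifr and Jak2, the levels with palmitate, with and without IL-1β, were not distinguished and exceeded IL-1β, which exceeded BSA. The call of IL-1β above BSA was lost for Lifr without BSA replicate 1 or BSA replicate 2. For Il6ra and Jak1 the palmitate conditions exceeded IL-1β and BSA, which were not distinguished, and the same held for Stat3 with BSA and IL-1β in the other order. Socs2 gave the opposite order, with BSA and IL-1β above both palmitate conditions. Socs3 alone had palmitate above palmitate + IL-1β, followed by BSA and IL-1β together, and its first step was not called without palmitate replicate 10. The highest condition mean exceeded the lowest by 4.86 times for Socs3, 3.7 times for Osmr, 2.47 times for Lifr and 2.09 times for Jak2, and by 1.27 times for Stat3, 1.2 times for Jak1 and 1.18 times for Il6st. Over the 16 libraries, which share these conditions, the genes most like Socs3 among 11817 candidates were Gng2 (Pearson r = 0.982), Lbp (0.981) and Tnfrsf1b (0.98). Those most like Osmr were Gnptab (0.997), Rbpj (0.996) and Tapbp (0.995), and those most like Lifr were Hk2, Foxo3 and Slc43a2 (0.991 each).

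The ligands of these receptors give the other side of the pathway. Of 10 gp130 cytokine genes, 5 were tested, and with palmitate 2 rose, against 37.3% of all tested genes called (19.8% higher). Lif, the ligand of Lifr, rose from 3.49 ± 0.372 CPM in BSA to 25.8 ± 1.6 CPM with palmitate (log2 fold change 2.89, SE 0.09, adjusted p = 6.06e-22). Il6, which binds Il6ra, rose from 0.439 ± 0.071 to 7.97 ± 0.96 CPM (SD, n = 4; log2 fold change 4.19, SE 0.16, adjusted p = 1.07e-19). With IL-1β alone, Lif reached 9.71 ± 1.38 CPM (log2 fold change 1.49, adjusted p = 1.12e-12) and Il6 0.922 ± 0.185 CPM (1.06, adjusted p = 0.00225). Like Osmr, Lif was called in the interaction (-1.34, SE 0.13, adjusted p = 5.91e-09), and its level with both agents was 28.6 ± 2.12 CPM. Il11 (0.33, adjusted p = 0.2), Clcf1 (-0.12, adjusted p = 0.417) and Ctf1 (-0.57, adjusted p = 0.0965) were not called with palmitate. Osm, the ligand that signals through Osmr, had 0 counts in all 16 libraries, which allows up to 0.0331 to 0.146 CPM per library. Ctf2, Cntf, Il27 and Ebi3 were too low to be tested.

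Other chains and kinases of the family did not move as a block. Il11ra1, the IL-11 receptor chain, measured 26.7 ± 1.36 CPM in BSA and 18.5 ± 0.966 CPM with palmitate, and fell by 0.53 on the log2 scale (adjusted p = 1.03e-08) as well as by 0.22 with IL-1β (adjusted p = 0.00912). Il27ra was called higher with palmitate (1.09, adjusted p = 0.0363) but its libraries overlapped, Cntfr was not called (-0.43, adjusted p = 0.421) and Il31ra was not tested. Tyk2, a further kinase of the JAK family, rose by 0.8 on the log2 scale with palmitate (SE 0.05, adjusted p = 6.33e-14) and by 0.39 with IL-1β (adjusted p = 2.31e-06), with an interaction of -0.28 (adjusted p = 0.0384). Jak3 fell by 0.47 with palmitate (adjusted p = 0.0423), with overlapping libraries. Of 4 other STAT genes tested, Stat2 and Stat5a were called higher with palmitate, by 1.3 (adjusted p = 1.32e-07) and 0.28 (adjusted p = 0.000568). Over all tested genes, 37.3% were called with palmitate (19.8% higher) and 15.1% with IL-1β. With IL-1β, 0 of the 4 STAT genes were called by edgeR or by DESeq2, and 0 had an unadjusted edgeR p under 0.05.

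**Figure D5:**
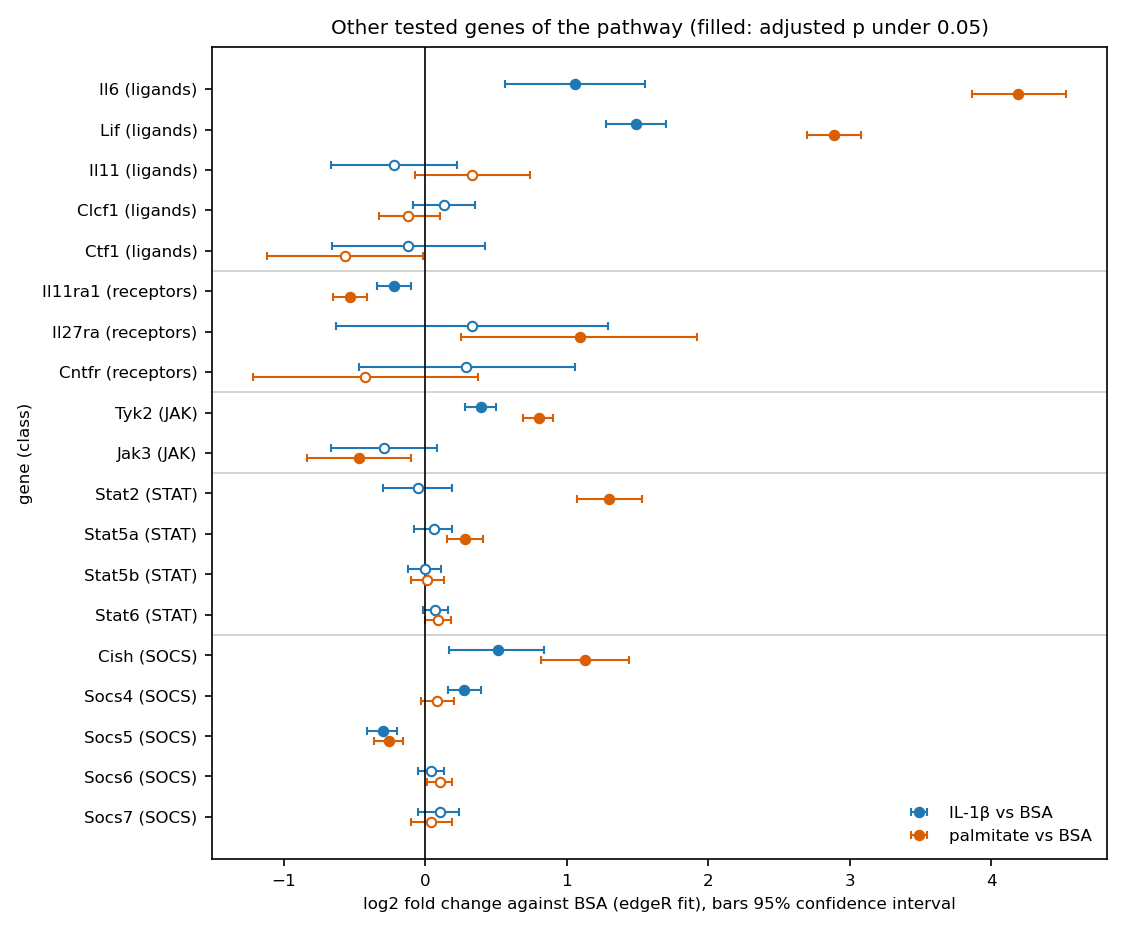
Log2 fold change against BSA (horizontal axis; points, edgeR estimate; bars, 95% confidence interval) with IL-1β and palmitate for other tested ligands, receptors, JAK, STAT and SOCS genes (vertical axis), filled where the adjusted p was under 0.05. The largest values with palmitate belong to Il6 (4.19) and Lif (2.89), and Il11ra1 lies below 0 in both comparisons.

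Of the 5 other SOCS family genes, Cish, a STAT5-induced suppressor, rose from 1.65 ± 0.363 to 3.71 ± 0.45 CPM with palmitate (log2 fold change 1.13, adjusted p = 3.75e-07) and by 0.51 with IL-1β (adjusted p = 0.0357). Socs5 fell with palmitate by 0.26 on the log2 scale (adjusted p = 7.25e-05), with IL-1β by 0.3 (adjusted p = 3.82e-05), and from palmitate to the pair of agents by 0.4 (adjusted p = 8.64e-07). Socs4 was called higher with IL-1β (0.27, adjusted p = 0.000996) and not with palmitate (0.08, adjusted p = 0.268). Socs6 and Socs7 were called in neither. Another 10 tested genes were phosphatases, PIAS proteins, adaptors and shedding proteases linked to JAK-STAT signals. Of these, 5 rose and 2 fell with palmitate, against 37.3% of all tested genes called. Adam17, the protease that sheds the IL-6 receptor, rose by 0.83 on the log2 scale (adjusted p = 8.89e-17) and Ptpn1, a JAK phosphatase, by 0.63 (adjusted p = 1.08e-12), while Pias3, an inhibitor of STAT3, fell by 0.3 (adjusted p = 0.000636) and Pias1 by 0.16 (adjusted p = 0.0126). With IL-1β, 2 of the 10 rose, Adam17 by 0.23 (adjusted p = 0.000189) and Ptpn2 by 0.22 (adjusted p = 0.0367), against 15.1% of all tested genes called.

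Genes known to respond to STAT3 were read beside Stat3 and Socs3. Of 26 listed genes, 23 were tested, and 17 were called higher and 3 lower with palmitate, against 37.3% of all tested genes called (19.8% higher), with a median log2 fold change of 0.66 against 0 over all tested genes. Steap4, a metalloreductase, went from 0.549 ± 0.154 to 90.6 ± 2.56 CPM (log2 fold change 7.33, SE 0.19, adjusted p = 1.07e-13), and Saa3, an acute phase gene, from 0.0835 ± 0.0659 to 23.2 ± 2.24 CPM (adjusted p = 1.76e-26), with 1 to 5 counts per BSA library behind the lower level. Called lower were Pim3, by 0.53 on the log2 scale (adjusted p = 0.000147), Bcl6, by 0.18 (adjusted p = 0.0117), and Fos, by 0.77 (adjusted p = 0.00237), the latter under the level set for naming and given because it completes the count. IL-1β called 10 of the 23 higher and 1 lower (Ccnd1 fell by 0.12, adjusted p = 0.0448), against 15.1% of all tested genes called (10.1% higher), with a median of 0.27. Between palmitate and the pair of agents, Myc (0.77) and Fosl1 (0.5) had the largest rises of 4 called, and Junb (by 0.28) and Ccnd1 (by 0.2, adjusted p = 0.00124) fell, in the same direction as Socs3, against 9.81% of all tested genes called. In the interaction, 7 of the 23 were called lower, with the largest values in Saa3 (-3.07) and Steap4 (-2.06), against 1.99% of all tested genes called. Many of these genes also answer to other factors.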

How the data were processed

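The deposited values are raw gene counts, which the authors made by trimming reads with Trimmomatic 0.39, aligning them to GRCm39 with STAR 2.7.10a and counting by strand with HTSeq 2.0.9 on GENCODE vM33. On the library kit the sources differ, with total RNA and strand marking in the labels and oligo(dT) priming in the methods. The 5 summary rows (18.3% to 21.4% of each library) were left out. From the counts, edgeR 4.0.16 (R 4.3.3) was run with TMM, filterByExpr (minimum count 10, minimum total 15), glmQLFit with robust estimation and glmQLFTest, with 1 mean per condition and 12 residual degrees of freedom. The steps were tested on simulated counts in which few genes changed, equally in both directions, and all genes shared the same spread. That setting did not test the scaling where many genes change. Alternatives were DESeq2 1.42.0, other scalings and filters, fits of 8 libraries, mitochondrial genes left out, and each library left out in turn. Positions and lengths came from GENCODE vM39, promoters from RefSeq, and shared sequence from blastn 2.17.0. Replicates of a condition differed by more than counting noise (chi-square per degree of freedom 2.63 to 18.5 over 24 pairs). Since duplicate reads were not told apart from separate molecules, the floors describe counting error alone.

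The genes and lists were chosen with earlier results of these data known. All 10 genes are named throughout. Some listed genes are not reported here and were left out of the lists and their counts. The remaining ligand, receptor, JAK, STAT and SOCS genes are named where tested, and of other lists up to 2 higher and 2 lower calls per comparison with the largest change and an average log2 CPM of at least 1. Genes of like pattern are the 3 with the highest correlation to each of the 3 members whose condition means ranged most.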

Additional observations from a re-analysis of the deposited data

Results flagged for a closer look

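Within groups of 4 libraries, 44 groups of values were searched for a library far from the other 3, and 3 stood apart, where chance alone flags about 1 group in 20. Stat3 in BSA replicate 2 was 145 CPM, against 149 to 150 CPM in the other BSA libraries. Gene counts were 31314557 in IL-1β replicate 7, against 24376996 to 25347673 in the other IL-1β libraries, and 92752515 in palmitate replicate 10, against 21234789 to 27076430 in the other palmitate libraries. For Osmr, palmitate had a different effect in the presence of IL-1β than in its absence, with an interaction of -0.55 on the log2 scale, among the 10 interactions tested for these genes.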

How the results depend on the processing

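No paired analysis was possible because the replicate numbers, 1 to 16, are not shared between conditions. Of 1120 recomputed values of the 10 genes, 12 lost their call, 3 gained one and 5 changed sign, all of the last uncalled. The other 1100 kept their side of the threshold and, apart from values that rounded to 0, their direction. A change of sign was not counted where either value rounded to 0. Jak2 from palmitate to both agents (0; -0.02 to 0.03 without single libraries) and the Stat3 interaction (0; -0.02 to 0.02) therefore lay on both sides of 0 uncounted. With palmitate against BSA, 9 genes were called in every alternative. Leaving out each library in turn gave 2 to 4 calls with IL-1β against BSA (2 without BSA replicate 1 or BSA replicate 2), 9 to 10 with both agents against BSA, and 0 to 1 with both agents against palmitate (0 by edgeR without palmitate replicate 10, where 1 gene, Socs3, had an unadjusted p under 0.05, and 1 by DESeq2 on all libraries). DESeq2 called 2 interactions (Osmr and Jak2). The counted changes of sign were in Il6st from palmitate to both agents (-0.04 to 0.01 without single libraries; 0.01 without palmitate replicate 9 or palmitate + IL-1β replicate 16), Il6ra in that comparison (-0.05 to 0.03; 0.03 without palmitate replicate 11) and Socs1 in palmitate against IL-1β (-0.02 to 0.14; -0.02 without IL-1β replicate 8, -0.01 without palmitate replicate 11). The cause was not tested. Canonical lengths gave Jak2 20% and 30.3% of the JAK sum in BSA and palmitate, against 29.4% and 42% on merged exons. With upper-quartile scaling the median log2 fold change of all genes was -0.077 to 0.035 over the comparisons, against -0.005 to 0.007 with TMM. Depth limits Socs1 most.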

Other observations

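Osmr and Lifr, which both rose with palmitate, are neighbours on mouse chromosome 15, and the genes within 500 kb of them were read after the values of these 2 genes were seen. Fyb1, an adaptor protein gene known from blood cells, rose with palmitate by 2.3 on the log2 scale (SE 0.18, edgeR adjusted p = 3.33e-12) and was not called with IL-1β (0.4, adjusted p = 0.259). Rictor, a subunit of the mTORC2 kinase complex and the closest tested gene to Osmr, rose by 0.27 with palmitate (SE 0.06, adjusted p = 0.00055) and by 0.24 with IL-1β (adjusted p = 0.00539). Dab2, an endocytic adaptor gene, was not called in either comparison (0.04, adjusted p = 0.622, and -0.06, adjusted p = 0.53). C9 and Egflam had too few counts to be tested.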
